A study of Mus musculus with 2 samples.

Results

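Lysyl oxidases are secreted amine oxidases that carry a copper ion and a cofactor made from one of their own tyrosines. They turn lysines of collagens and elastin into aldehydes, which then form the covalent crosslinks that give bone matrix and elastic fibres their strength. Copper reaches them in the secretory pathway through the pump Atp7a, after import by Slc31a1. The mouse family has 5 genes, Lox and Loxl1 to Loxl4, and all 5 were among the 32285 genes of the deposited tables, where they were found by symbol. Their levels were followed across the cell classes and stromal states of adherent bone marrow stromal cells (BMSCs), the plastic-adherent fraction of flushed marrow.

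One library came from mice of the genotype Prrx1-Cre+/-; Slc31a1flox/flox (cKO) and one from Slc31a1flox/flox littermates without Cre (WT), so both groups carried the floxed copper importer and only cKO mice carried the Cre. Prrx1-Cre is active in limb mesenchyme and is not aimed at blood cells. All mice were on the C57BL/6J background. Femoral and tibial marrow was grown in alpha-MEM with 10% fetal bovine serum, loose cells were taken off at 48 h, and no osteogenic medium was given. The sources used here do not give age, sex or the number of mice per library. The libraries were compared to ask how loss of copper uptake alters the osteogenic lineage. With 1 library per group there was no replicate check, so no test was made. Differences are between these 2 libraries, and every interval is a 95% interval that covers counting error only.

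The 10x 3' assay counts transcripts as unique molecular identifiers (UMIs). The cKO library held 126031142 UMIs in 6140 barcodes and the WT library 152398639 UMIs in 9125 barcodes, and 11 barcode sequences occurred in both. After filtering, 5263 cKO and 7637 WT cells remained, of which 1410 and 3670 were mesenchymal-like. The labels call the samples mesenchymal stem cells, but macrophage-like cells numbered 2570 in cKO and 2866 in WT. Mesenchymal-like cells were deeper in cKO, with a median of 62012 UMIs against 14206 in WT. Macrophage markers inside mesenchymal-like cells summed to 183 CPM (UMIs scaled by the total of the library and class) in cKO and 366 CPM in WT, and none of the 10 was higher in cKO. Slc31a1 stood at 14.3 CPM in cKO and 42.3 CPM in WT mesenchymal-like cells, a ratio of 0.338 (0.317 to 0.360), and at 72.2 CPM and 69.7 CPM in macrophage-like cells. The floxed exons are not given, so 3' UMIs need not show the whole deletion.

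The copper ion is held by a stretch rich in histidines that defines the family, and its coding bases are shown for 4 members because they are what the genes share as copper enzymes. The stretch reads tryptophan, any residue, tryptophan, histidine, any residue, cysteine, histidine, any residue, histidine, tyrosine, histidine. Among 21614 protein-coding genes of GENCODE M21 (GRCm38) it was found in 5, or 0.0231%, and these were the 5 lysyl oxidases. The bases below are from the GENCODE transcripts, read 5′ to 3′ on the coding strand, with the 4 histidine codons in capitals.
Loxl1: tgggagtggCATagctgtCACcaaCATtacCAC
Loxl2: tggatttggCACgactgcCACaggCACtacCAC
Loxl3: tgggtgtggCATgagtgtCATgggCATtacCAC
Loxl4: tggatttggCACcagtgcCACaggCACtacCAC
All 4 stretches are split by an intron. The Loxl1 stretch spans chr9:58293720-58294381 on the minus strand (exons 3 and 4 of 7). The Loxl2 stretch spans chr14:69682316-69689037 on the plus strand (exons 10 and 11 of 14). The Loxl3 stretch spans chr6:83049995-83050125 on the plus strand (exons 10 and 11 of 14), and the Loxl4 stretch chr19:42598807-42599899 on the minus strand (exons 11 and 12 of 15). Loxl2 and Loxl4 were the closest pair, identical at 31 of 33 bases, while the other pairs shared 21 to 25 bases and all 4 shared 20.

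In full, Lox (ENSMUSG00000024529) lies at chr18:52516067-52529867 and Loxl1 (ENSMUSG00000032334) at chr9:58287738-58313186, both on the minus strand of GRCm38. Loxl2 (ENSMUSG00000034205) lies at chr14:69609068-69695834 and Loxl3 (ENSMUSG00000000693) at chr6:83034173-83052562, both on the plus strand, and Loxl4 (ENSMUSG00000025185) at chr19:42593982-42612813 on the minus strand. Loxl3 overlaps Htra2, a mitochondrial protease gene on the other strand, and Lox overlaps the antisense gene AC161119.1. The sources used here do not say whether counting used strand or introns, so reads of these pairs cannot be told apart with certainty. Because 3' UMI counts are not scaled by length, levels are compared below between cells for each gene, and not between genes.

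Lox, Loxl1, Loxl2 and Loxl3 were mesenchymal genes in both libraries: among the 7 named classes with enough cells (30 in each library), each was highest in mesenchymal-like and next highest in endothelial-like cells. For Loxl3 in WT this first place did not hold under every choice of cells, and the values are given with the processing alternatives. Lox, the founding member that crosslinks fibrillar collagen and elastin, stood at 1851 CPM (1842 to 1861) in cKO and 1917 CPM (1908 to 1925) in WT mesenchymal-like cells. Loxl1, best known for elastic fibre upkeep, had 264 CPM (260.5 to 267.5) in cKO and 289.8 CPM (286.5 to 293.1) in WT. Loxl2, which acts on basement membrane collagen IV as well as fibrillar collagens, had 539 CPM (534 to 544) in cKO and 532 CPM (528 to 537) in WT. These 3 genes were close between the libraries, and their counting intervals overlapped between the libraries for Loxl2 alone. Loxl3, known for roles in palate and spine development in mice, had 128 CPM (125 to 130.3) in cKO and 104.5 CPM (102.6 to 106.5) in WT. Loxl4 was sparse, with 6.38 CPM (531 UMIs) in cKO and 6.06 CPM (625 UMIs) in WT.

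**Figure D1:**
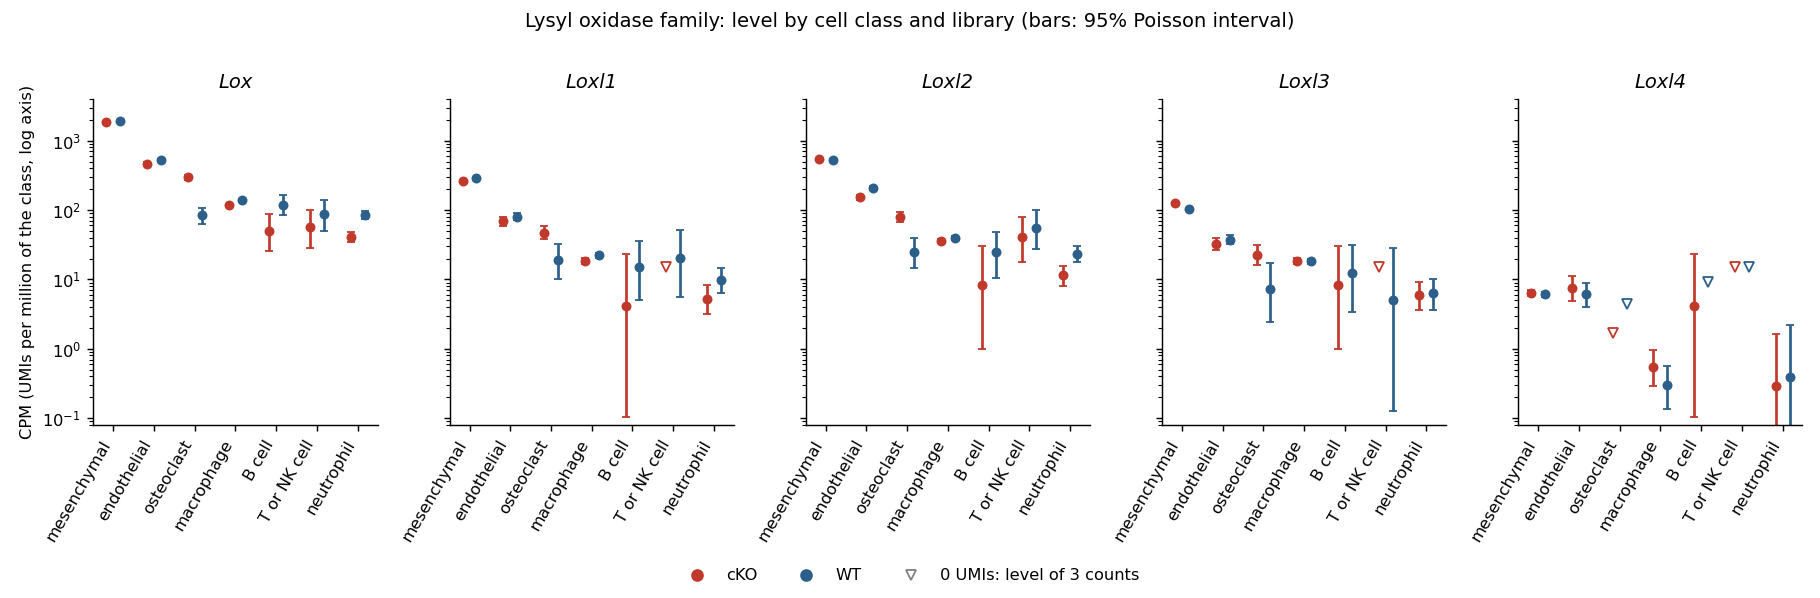
Level of each lysyl oxidase gene in CPM (log axis) by cell class, with cKO left of WT; bars are exact Poisson 95% intervals and open triangles mark the level of 3 counts where no UMI was seen. Lox, Loxl1, Loxl2 and Loxl3 are highest in mesenchymal-like cells, and Loxl4 is alike in endothelial-like and mesenchymal-like cells.

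In endothelial-like cells Lox had 462 CPM in cKO and 522 CPM in WT, which is 24.9% and 27.2% of the mesenchymal level. Endothelial-like cells were followed by osteoclast-like and macrophage-like cells in cKO for Lox, Loxl1 and Loxl3, although the Loxl3 intervals of these neighbours overlapped. In WT each class below macrophage-like cells overlapped the one above it for Lox, Loxl1 and Loxl3, so the order of neighbours was not resolved there. Neutrophil-like cells still lay below macrophage-like cells for all 3 genes. For Lox in WT the intervals were 74.7 to 97.8 CPM and 134 to 142 CPM. For Loxl2, T or NK cell-like cells, with 8 UMIs in cKO and 11 in WT, overlapped macrophage-like cells. Loxl4 was the exception to the order: 7.54 CPM (4.83 to 11.2) in cKO and 6.13 CPM (4.04 to 8.92) in WT endothelial-like cells lay within counting error of the mesenchymal levels. Osteoclast-like cells had no Loxl4 UMI in either library, and 3 counts would have been 1.72 CPM in cKO and 4.42 CPM in WT.

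Lysyl oxidase UMIs in blood cells were read against 7 stromal anchor genes (Col1a1, Col1a2, Col3a1, Col5a2, Postn, Sparc and Bgn), since stromal RNA from one source keeps its genes in similar ratios. Where these UMIs came from was not tested. In macrophage-like cells the anchors stood at a median of 7.42% of their mesenchymal level in cKO (range 5.31 to 8.90) and 7.41% in WT (5.77 to 9.67). Lox stood at 6.46% in cKO and 7.21% in WT, Loxl1 at 6.93% and 7.71%, and Loxl2 at 6.65% and 7.39%. All 3 were inside the anchor range.

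Loxl3 was higher in macrophage-like cells than the anchors, at 14.4% (13.1 to 15.8) of its mesenchymal level in cKO and 17.5% (16.1 to 19.0) in WT. These shares were 1.94 and 2.36 times the anchor median, and both intervals lay above all 7 anchors. The level itself was 18.4 CPM (434 UMIs) in cKO and 18.3 CPM (555 UMIs) in WT, a ratio of 1.01 (0.886 to 1.14). The excess was present in the larger macrophage clusters: in cluster 2 (led by Cx3cr1 and Selenop) Loxl3 stood at 13.7% in cKO and 17.5% in WT, in cluster 4 (Adam8, Cd36) at 11.7% and 16.5%, and in cluster 5 (Ccl2, Ccna2) at 13.2% and 14.8%, each above every anchor. In cluster 3 (Cx3cr1, Lgmn) it stood at 26.8% and 31.9% with intervals that reached into the anchor range. Outside this class, Loxl3 was also above all anchors in 2 unnamed clusters of the cKO library, with 9 UMIs in cluster 10 (4.49 times the anchor median) and 12 UMIs in cluster 11 (2.99 times), but not in the WT cells of these clusters, at 1.14 and 2.62 times. In B cell-like cells it stood at 2.07 times in cKO and 2.80 times in WT, and in neutrophil-like cells at 1.83 and 1.28 times, from 2 to 20 UMIs and with intervals that reached into the anchor range. In osteoclast-like cells Loxl3 lay inside the anchor range, at 1.115 times in cKO (40 UMIs) and 1.96 times in WT (5 UMIs). T or NK cell-like cells held 0 Loxl3 UMIs in cKO and 1 in WT. Htra2, the overlapping gene, was itself slightly higher in macrophage-like cells, at 47.6 CPM in cKO and 40.9 CPM in WT, against 39.1 CPM and 35.7 CPM in mesenchymal-like cells, and its part in the Loxl3 count was not tested.

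**Figure D2:**
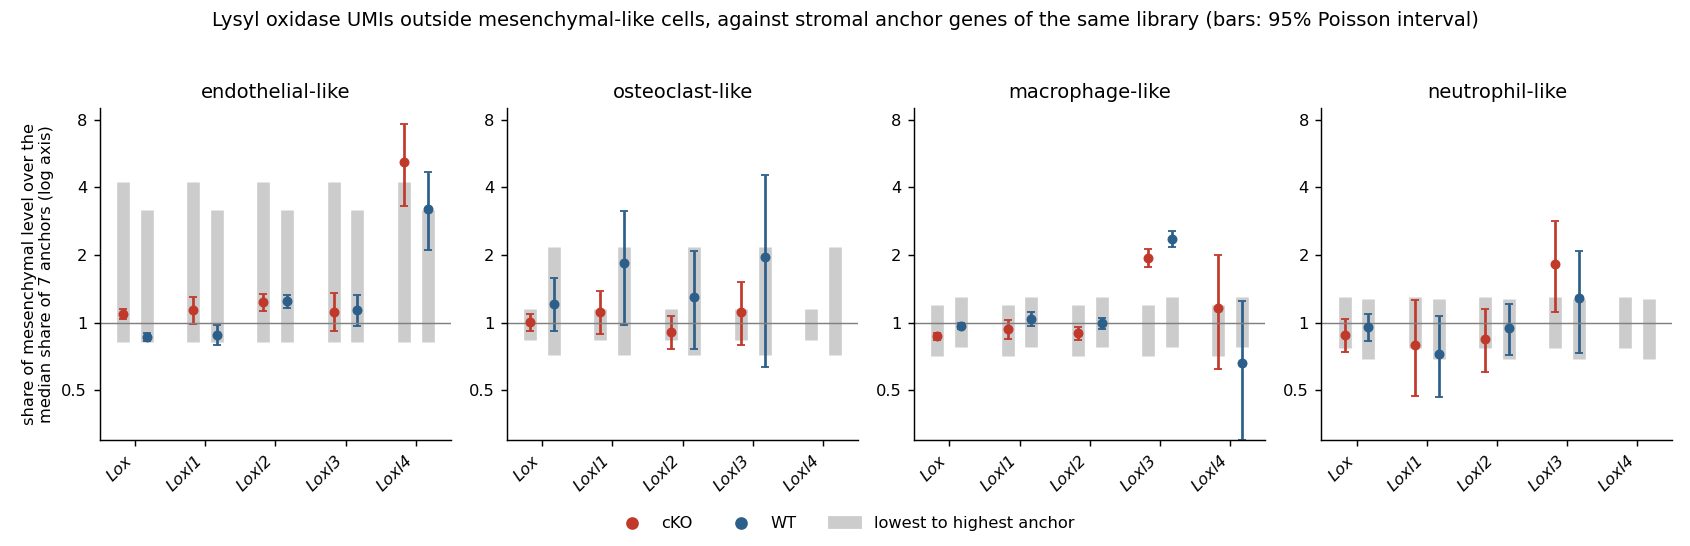
Share of the mesenchymal level held in 4 other classes, divided by the median share of the 7 anchor genes in the same library (log axis, cKO left of WT); bars are exact Poisson 95% intervals, grey blocks run from the lowest to the highest anchor, and values from fewer than 5 UMIs are left out. Loxl3 lies above the anchors in macrophage-like cells of both libraries, at 1.94 in cKO and 2.36 in WT, and Loxl4 stands high in endothelial-like cells.

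In endothelial-like cells Loxl4 stood at 118% of its mesenchymal level in cKO (24 UMIs) and 101% in WT (27 UMIs), against anchor medians of 22.8% and 31.5%. The anchor range there reached 97.0% in cKO and 100.4% in WT, so the Loxl4 intervals, which began at 75.7% and 66.6%, did not clear it. Sparc alone set this top, at 4546 CPM in cKO and 4842 CPM in WT, against 4688 CPM and 4822 CPM in mesenchymal-like cells. The next anchor, Bgn, had 531 CPM in cKO and 502 CPM in WT, against 1087 CPM and 1111 CPM. Loxl2 stood at 28.1% (25.7 to 30.8) in cKO and 39.4% (36.9 to 42.0) in WT, or 1.23 and 1.25 times the anchor median, inside the anchor range. Lox stood at 1.09 times this median in cKO and 0.864 times in WT. Loxl1 stood at 1.14 times in cKO and 0.882 times in WT, and Loxl3 at 1.12 and 1.14 times. These shares were inside the anchor range too. This cluster also held immunoglobulin transcripts (Igha, Jchain) among its leading genes. With the endothelial-like class taken at a clustering resolution of 1.0, a choice added after the data were seen, Loxl4 kept 24 UMIs in 94 cKO cells and 25 UMIs in 210 WT cells, at 124% and 101% of the mesenchymal level.

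Osteoclast-like cells had more lysyl oxidase UMIs in cKO than in WT, as they had more of every anchor. Lox stood at 298.5 CPM in 82 cKO cells and 84.0 CPM in 32 WT cells, which is 16.1% and 4.38% of its mesenchymal levels. The anchor medians in the same cells were 16.0% in cKO and 3.60% in WT, so Lox lay within the anchor range (13.4 to 18.5% in cKO and 2.59 to 7.83% in WT). Neutrophil-like cells went the other way, with less Lox in cKO (41.1 CPM against 85.7 CPM in WT) and less of every anchor. There too Lox lay within the anchor range, at 2.22% in cKO and 4.47% in WT against anchor medians of 2.51% and 4.69%.

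Per cell, Lox was found in nearly every mesenchymal-like cell, and the shares of the other members depended on depth. Each cell was thinned to 20000 UMIs, which left 1136 cKO and 1675 WT cells and left out 274 and 1995 shallower ones. Lox was then found in 100% of cells of both libraries, Loxl1 in 98.5% of cKO and 98.7% of WT cells, and Loxl2 in 98.7% and 99.3%. Loxl3 was found in 79.0% (76.5 to 81.3) of cKO cells and 74.7% (72.5 to 76.8) of WT cells, where the unthinned shares were 85.5% and 66.7%. Loxl4 was found in 11.9% of cKO and 11.3% of WT cells. Thinning to 5000 UMIs kept 1264 cKO and 2730 WT cells and gave lower shares. Lox was then found in 99.2% of cKO and 99.4% of WT cells, Loxl1 in 70.3% and 75.5%, Loxl2 in 83.6% and 88.1%, Loxl3 in 42.8% and 39.3%, and Loxl4 in 3.24% and 3.19%.

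Macrophage-like cells gave no order between the libraries for Loxl3. At 20000 UMIs, which left out 2378 cKO and 2566 WT cells, it was found in 25.5% (19.5 to 32.3) of 192 cKO cells and 19.3% (15.02 to 24.3) of 300 WT cells. At 5000 UMIs it was found in 7.97% (6.72 to 9.38) of 1668 cKO cells and 8.51% (7.36 to 9.77) of 2128 WT cells. At 20000 UMIs Loxl4 UMIs were found in 0 of the 192 cKO cells, where 3 cells would be 1.56% and the exact interval reaches 1.903%, and in 1 of the 300 WT cells. In mesenchymal-like cells at the same depth, UMIs of Lox, Loxl1, Loxl2 and Loxl3 occurred together in 77.4% of cKO and 73.6% of WT cells.

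The amount per cell varied beyond sampling for Lox, Loxl1, Loxl2 and Loxl3. At 20000 UMIs the middle 80% of cKO cells held 16 to 62 Lox UMIs (median 34), and of WT cells 16 to 65 (median 35). The variance was 9.83 times the mean in cKO and 10.6 times in WT, where sampling alone gives a ratio near 1, and this ratio grows with the mean, so it does not rank the genes. It was 1.68 in cKO and 1.75 in WT for Loxl1, 4.15 and 4.17 for Loxl2, 2.67 and 2.10 for Loxl3, and 1.16 and 1.03 for Loxl4.

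Between the libraries, Loxl3 was the member with the largest difference in mesenchymal-like cells, and it was higher in cKO. Its ratio of cKO over WT was 1.22 (1.19 to 1.26), while Lox gave 0.966 (0.960 to 0.973), Loxl1 0.911 (0.895 to 0.927) and Loxl2 1.01 (1.00 to 1.03). Loxl4 gave 1.05 (0.937 to 1.18) and was under the 10 CPM used for lists. Loxl3 was thus 1 of 4 members over that level past 1.2-fold, the smaller of the folds used as descriptions, and it was higher in cKO, as were 3.32% of the 8939 genes at or above 10 CPM. No member was past 1.5-fold, against 1.71% of all genes. Only 2.57% of genes had a higher ratio than Loxl3, whereas 56.1% were above Lox, 78.1% above Loxl1 and 36.3% above Loxl2. With every cell weighted alike the Loxl3 ratio was 1.16, under 1.2-fold. Htra2, which overlaps Loxl3, gave 1.09 (1.04 to 1.15) in mesenchymal-like cells, and its part in the Loxl3 ratio was not tested.

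**Figure D3:**
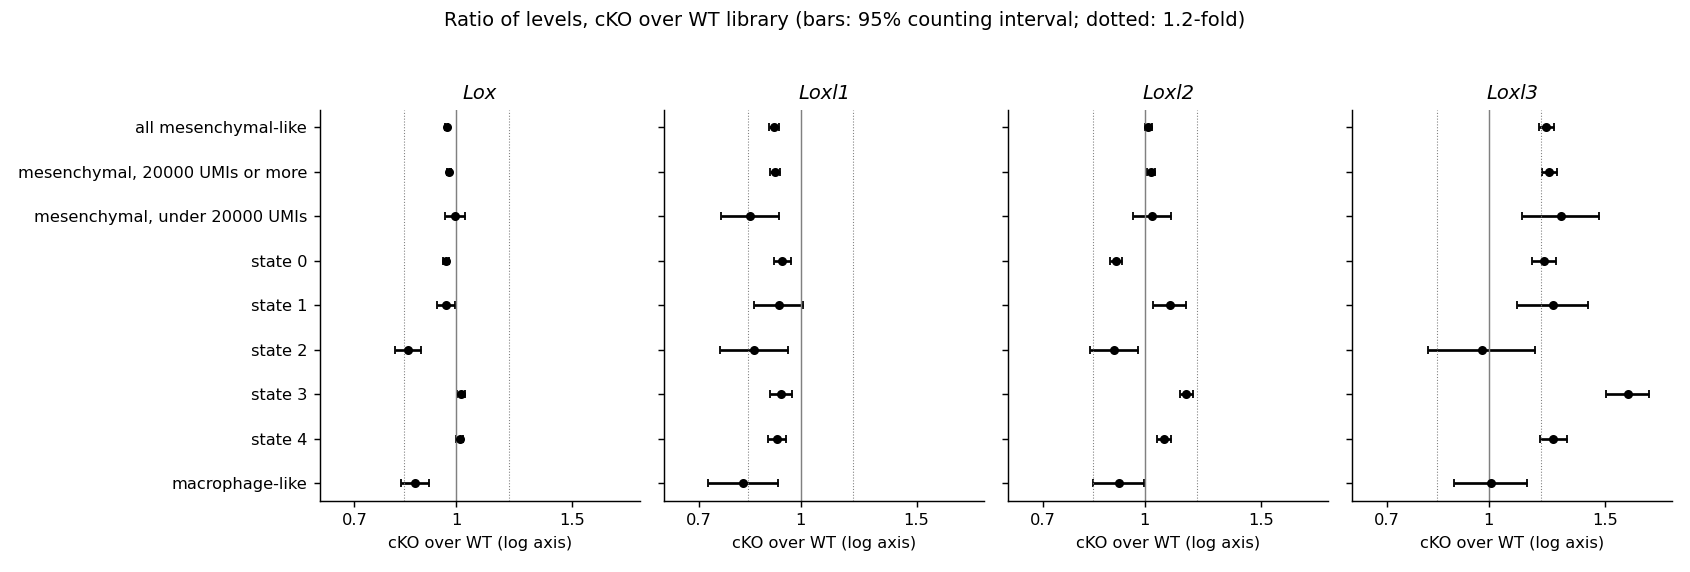
Ratio of levels, cKO over WT (log axis), for 4 lysyl oxidase genes in all mesenchymal-like cells, in those with at least and under 20000 UMIs, in the re-clustered mesenchymal states and in macrophage-like cells; points are ratios, bars are exact 95% counting intervals, and dotted lines mark 1.2-fold. Loxl3 is at or past 1.2 in all rows but state 2, at 0.977, and macrophage-like cells, at 1.01, while Loxl1 lies left of 1 in every row.

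The Loxl3 difference was seen in deep cells and in the pool of shallower cells, but not in the shallowest. In cells with at least 20000 UMIs it had 127 CPM in cKO and 103 CPM in WT, a ratio of 1.24 (1.202 to 1.27), and in shallower cells 147 CPM and 114 CPM, a ratio of 1.29 (1.12 to 1.47). Under 2500 UMIs the ratio was 0.545 (0.237 to 1.11), and in cluster 1, the shallow mesenchymal cluster before re-clustering (199 cKO and 1904 WT cells, medians of 3539 and 5528 UMIs), it was 0.943 (0.829 to 1.07). Macrophage markers summed to 171 CPM in cKO and 253 CPM in WT in the deeper cells, and to 742 CPM and 1137 CPM in the shallower ones. Neutrophil markers summed to 177 CPM in cKO and 299 CPM in WT in the deeper cells and to 858 CPM and 2217 CPM in the shallower ones, with none of the 9 higher in cKO. The part of both in the ratios was not tested. Loxl1 stood at 264 CPM in cKO and 289 CPM in WT in the deeper cells (0.915), and at 248 CPM and 295 CPM in the shallower ones (0.839).

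Mesenchymal-like cells were re-clustered into 8 states, of which 5 held at least 50 cells in each library. State 0 (467 cKO and 680 WT cells) was led by contractile and adipogenic genes such as Rgs5, Tpm2, Fabp4 and Cxcl14 and stayed unnamed. States 1 (77 and 1051 cells) and 2 (57 and 916 cells) held macrophage or neutrophil transcripts. State 2 was shallow in both libraries, with medians of 5675 UMIs in cKO and 4521 UMIs in WT, while state 1 had 22076 UMIs in cKO and 7430 UMIs in WT, so its ratios compare cells of unlike depth. State 3 (356 and 438 cells) was named pre-osteoblast-like, with Ibsp and Slc13a5 among its leading genes, and state 4 (332 and 434 cells) was cycling-like. Only 25% of state 3 cells in cKO and 39.3% in WT fell into the finer cluster that kept the pre-osteoblast-like name. Lysyl oxidase transcripts were among the genes clustered, so their levels by state are a description. The shares of the states differed between the libraries.

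State 3 held the least Lox, Loxl1 and Loxl3 of these 5 states, while Loxl2 did not follow them at this resolution. Lox had 1599 CPM in cKO and 1575 CPM in WT state 3 cells, against 1963 CPM and 2014 CPM in the other 4 states together, which is 0.815 (0.805 to 0.824) and 0.782 (0.773 to 0.791) times as much. Loxl1 had 202 CPM in cKO and 216 CPM in WT, or 0.692 and 0.694 times the other states. Loxl3 showed the steepest gradient, with 77.7 CPM in cKO and 47.9 CPM in WT, or 0.519 (0.494 to 0.545) and 0.397 (0.373 to 0.423) times the other states. Loxl2 stood at 608 CPM in cKO and 525.5 CPM in WT, or 1.195 (1.17 to 1.22) and 0.986 (0.966 to 1.01) times the others. Loxl4 showed no gradient that its counts could resolve, at 0.907 (0.746 to 1.10) in cKO and 0.986 (0.810 to 1.19) in WT.

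**Figure D4:**
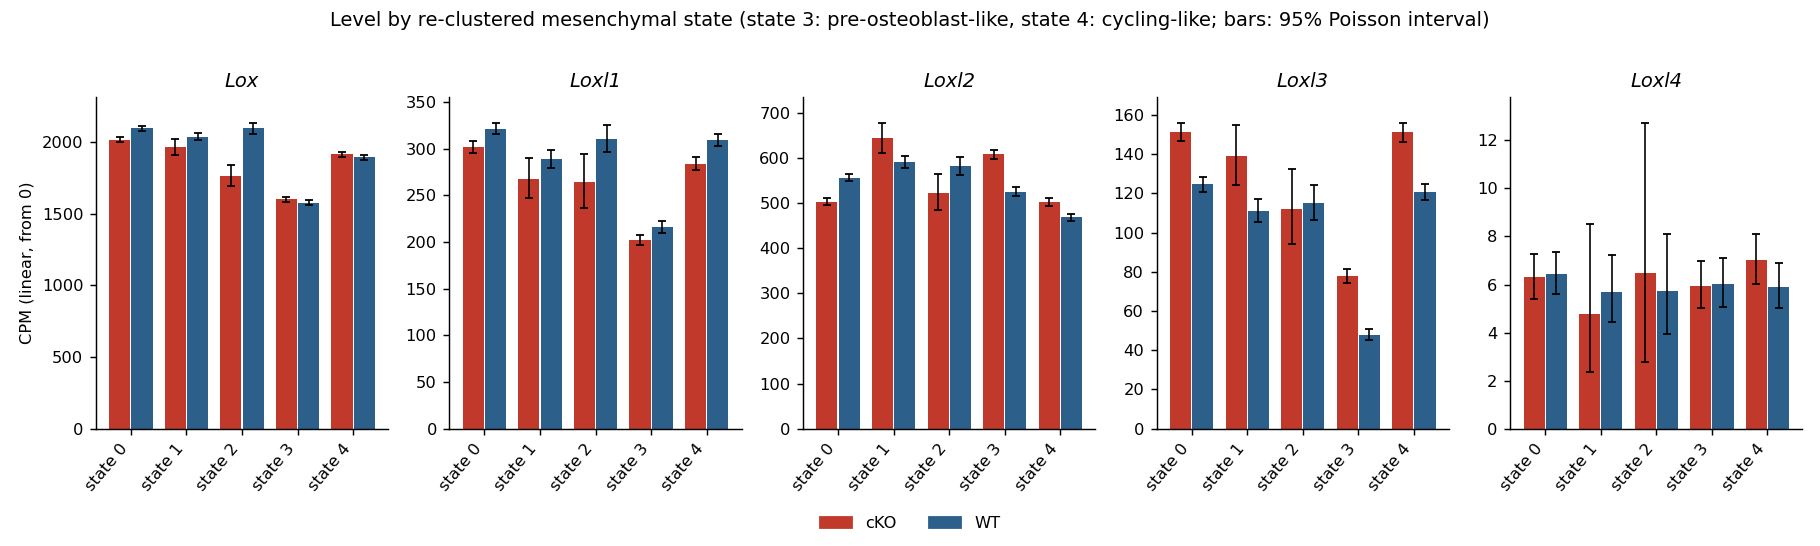
Level of each lysyl oxidase gene in CPM (linear axis from 0) in the 5 mesenchymal states with at least 50 cells per library, with cKO left of WT; bars carry exact Poisson 95% intervals. State 3, named pre-osteoblast-like but split by finer clusters, has the lowest Lox, Loxl1 and Loxl3 in both libraries.

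By state, Loxl3 was higher in cKO in 4 of the 5. The ratio was 1.21 (1.17 to 1.26) in state 0, 1.25 (1.10 to 1.41) in state 1 and 1.25 (1.195 to 1.31) in state 4, all past 1.2-fold, as were 5.61%, 15.2% and 5.11% of all genes in the same direction. In state 2, with 139 UMIs in cKO, it was 0.977 (0.808 to 1.17), and 37.0% of genes had a higher ratio. In state 3 it was 1.62 (1.51 to 1.75), past 1.5-fold as were 1.27% of 8657 genes, and only 0.832% of genes had a higher ratio. Loxl2 had ratios of 0.905 in state 0 and 0.899 in state 2 but 1.09 in state 1, 1.16 in state 3 and 1.07 in state 4. Loxl1 was below 1 in all 5 states, from 0.850 to 0.939, as were 47.7% (state 0) to 66.2% (state 2) of all genes. Lox ranged from 0.843 in state 2 to 1.01 in states 3 and 4. The lowest ratio of both genes was in state 2, where 57.35% of genes had a higher ratio than Loxl1 and 58.7% a higher ratio than Lox.

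State 3 was split by finer clusters, added after the data were seen, and these gave other ratios. Of its cells, 59.6% in cKO and 28.3% in WT fell into fine state 6, 25% and 39.3% into fine state 8, and most of the rest into fine states 1 and 3. At a resolution of 1.0, fine state 8, led by Ibsp and Bglap2 and named pre-osteoblast-like, held 89 cKO and 173 WT cells. In it Loxl3 had 34.9 CPM in cKO and 32.7 CPM in WT, a ratio of 1.07 (0.886 to 1.28). Fine state 6, led by Gzmd, Brinp3 and S100a4 and left unnamed, held 225 cKO and 141 WT cells. In it 0 pre-osteoblast markers were 1.5-fold above the mean over clusters. There Loxl3 had 92.2 CPM in cKO and 59.0 CPM in WT, a ratio of 1.56 (1.41 to 1.73). Fine state 3, led by Cxcl14 and Sfrp1, gave the widest gap in CPM, with 176 CPM in 182 cKO cells and 116 CPM in 329 WT cells, a ratio of 1.52 (1.43 to 1.62). Fine state 1, led by Fbxo32, had 126 CPM and 119 CPM, a ratio of 1.06 (0.997 to 1.12). No share of all genes was computed in the finer clusters, so these ratios cannot be set against a background.

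**Figure D5:**
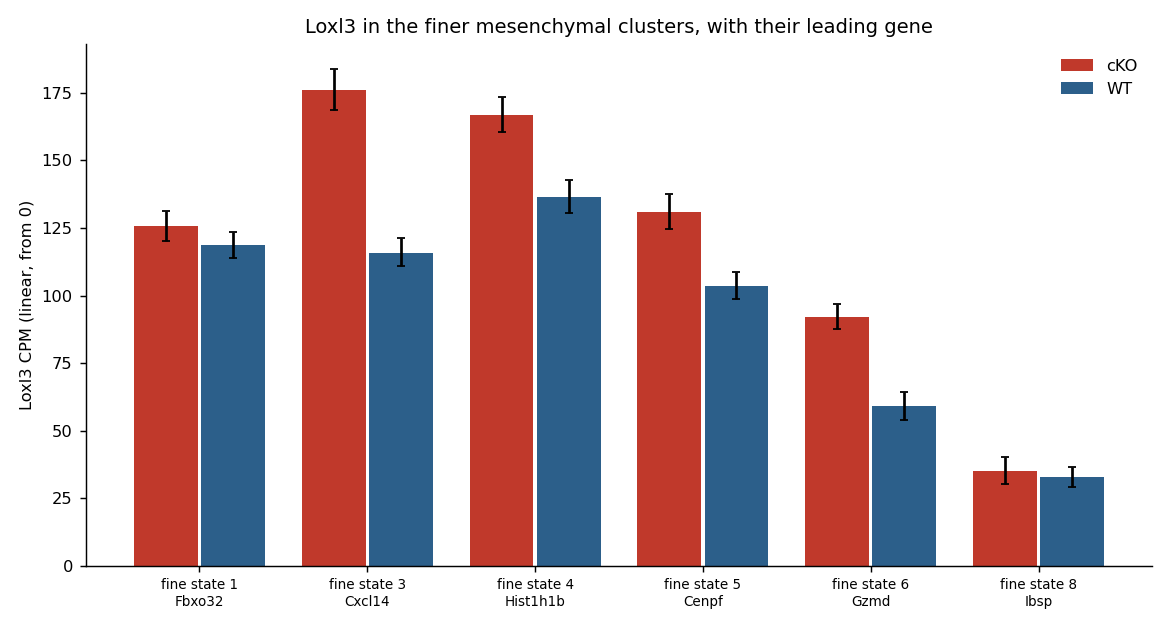
Loxl3 level in CPM (linear axis from 0) in the 6 finer mesenchymal clusters with at least 50 cells per library, with cKO left of WT and the leading gene of each cluster under its name; bars carry exact Poisson 95% intervals. The gap is wide in fine states 3 and 6 and small in fine states 1 and 8.

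Lox, Loxl1 and Loxl2 were lower in cKO in fine state 8, where the share of all genes lower in cKO was not computed. Lox had 1157 CPM in cKO and 1351 CPM in WT (0.857, 0.831 to 0.883), Loxl1 165 CPM and 195 CPM (0.846, 0.781 to 0.917), and Loxl2 395 CPM and 452 CPM (0.874, 0.829 to 0.921). In fine state 6 the same genes differed little, with ratios of 0.999 for Lox, 1.01 for Loxl1 and 1.05 for Loxl2. Lox was highest in fine state 3, at 2599 CPM in cKO and 2708 CPM in WT. Loxl2 in fine state 8 lay below its level in all mesenchymal-like cells, 539 CPM in cKO and 532 CPM in WT. Unlike in state 3, Loxl2 was thus low in this finer pre-osteoblast-like cluster.

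The substrates and helpers of crosslinking were described by lists, with genes at or above 10 CPM counted and the 8939 genes as background, of which 41.4% had a ratio above 1 and 58.6% below 1, at a median log2 ratio of -0.03. Of 8 fibrillar collagen genes, the main substrates, 7 had a ratio below 1 and 1 above, at a median log2 ratio of -0.12. Col3a1 had 936 CPM in cKO and 1241 CPM in WT (ratio 0.755), Col11a1 342 CPM and 436 CPM (0.785), and both were past 1.2-fold, as were 6.23% of genes in that direction. Col5a2 stood at 0.838 and Col2a1, the cartilage collagen, at 1.12.

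Of 17 genes of collagen modification and folding, 9 were higher and 8 lower, with a median of 0.01. None was past 1.2-fold, against 9.55% of all genes in either direction, so a list of this size does not stand apart. Those furthest from 1 were the prolyl hydroxylase subunits P4ha2 (0.892), P4ha1 (0.902) and P4ha3 (1.08) and the chaperone Fkbp10 (1.08). Of 7 procollagen processing genes, 3 were higher and 4 lower, with a median of -0.00. The proteinase enhancer Pcolce2 had 50.5 CPM in cKO and 39.1 CPM in WT (1.29). Bmp1, whose protease also releases the Lox propeptide, had 266 CPM and 289.6 CPM (0.919), its enhancer Pcolce gave 0.886 and the convertase Furin 1.09.

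Of 11 elastic fibre genes, 4 were higher and 7 lower, with a median of -0.07. The fibrillins, which form the microfibril scaffold, were lower in cKO. Fbn1 had 412 CPM in cKO and 533 CPM in WT (0.773). Fbn2 had 21.3 CPM and 42.1 CPM (0.505) and was the member past 1.5-fold, against 1.71% of all genes in either direction. Fbln1 gave 0.798, and Ltbp2 was higher, at 84.1 CPM in cKO and 68.1 CPM in WT (1.24). Eln, the elastin substrate, was below the level counted, at 1.06 CPM in cKO and 2.42 CPM in WT. Of 8 matrix partners, 4 were higher and 4 lower with a median of 0.01. The matricellular gene Ccn2 had 791 CPM in cKO and 656 CPM in WT (1.21). Postn, which brings Bmp1 to the matrix, gave 1.09, Fmod 1.06 and Dcn 0.962.

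All 7 counted genes of the list of other secretory copper enzymes and copper delivery were lower in cKO, with a median of -0.20, and this list includes the deleted Slc31a1. With no filter on low members the median was -0.06, and in state 0 the counted genes were 3 higher and 4 lower, with a median of -0.03. The ferroxidase Cp had 22.9 CPM in cKO and 30.5 CPM in WT (0.751), Atp7a 18.9 CPM and 22.2 CPM (0.851), and the extracellular superoxide dismutase Sod3 29.6 CPM and 34.2 CPM (0.865). The amidating enzyme Pam (0.962) and the copper chaperone Atox1 (0.999) lay near 1, and among cells with at least 20000 UMIs 6 of the 7 were lower, as were 55% of genes. Of 14 genes of the TGF-beta and hypoxia pathways and Snail factors, listed as regulators of the family, 5 were higher and 9 lower, with a median of -0.15, and 3 were past 1.2-fold in each direction, against 3.32% of all genes higher and 6.23% lower. Among cells with at least 20000 UMIs 3 were past it higher and 2 lower. Smad7, an inhibitor of TGF-beta signalling, had 105 CPM in cKO and 79.1 CPM in WT (1.33) and Snai1, whose protein is stabilised by Loxl2 and Loxl3 in human cells, 24.3 CPM and 17.7 CPM (1.37). Hif1a, which drives Lox in low oxygen, had 292 CPM in cKO and 365 CPM in WT (0.798), and the receptor Tgfbr2 77.2 CPM and 96.6 CPM (0.799).

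Genes with the most similar pattern were sought over 25 profiles, each a class or mesenchymal state in 1 library, which share libraries and depth. By Pearson r of log2(CPM + 1), Lox was most like Pdgfrb (0.992), Col1a2 (0.992), Col3a1 (0.991), Col1a1 (0.989) and Lhfp (0.988). Loxl1 was most like Cdh11 (0.984), Vasn, Lurap1l, Col6a2 and Mylk, and Loxl2 most like Fbln2 (0.989), Col5a1, Tln2, Ryk and Ptprd. Loxl3 was most like Vasn (0.983), Rab23, Lurap1l, Col8a1 and Loxl1 (0.969). Such values reflect the gap between mesenchymal and other classes, and 200 genes exceeded 0.95 for Lox, 142 for Loxl2, 87 for Loxl1 and 19 for Loxl3. Over the 13 mesenchymal profiles alone, Lox and Loxl3 had an r of 0.803, Lox and Loxl1 0.754 and Loxl1 and Loxl3 0.680. Loxl2 stood apart from them, at 0.460 with Lox, 0.238 with Loxl3 and -0.16 with Loxl1. Shallow profiles counted as much as deep ones in these values. Among them were state 5 in cKO (median 2399 UMIs) and state 7 in WT (2606 UMIs, with 35 Loxl3 UMIs in all). The part of depth and of blood cell transcripts in these r values was not tested.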

How the data were processed

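Per the file headers, Cell Ranger 7.1.0 made the deposited matrices, whose values are raw UMI counts for each gene in each called cell. The submitters' processing notes name mm10 (GRCm38), Cell Ranger and Seurat. The members and the gene lists were chosen with earlier results of these data known. Of 32285 gene identifiers, 32235 were found in GENCODE M21, the source of coordinates (1-based) and of the printed bases.

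The cell filter asked for 500 genes and 1000 UMIs or more and a mitochondrial share of 15% or less, and passed 5506 cKO and 8171 WT cells. Scrublet marked 2 doublets per library, so it had not worked, and the 243 cKO and 534 WT cells with the highest scores (0.8% per 1000 cells) were removed. Both libraries were clustered together with scanpy 1.11.5 and leidenalg 0.10.2 (2000 variable genes, 30 components, 15 neighbours, Leiden resolution 0.5), and mesenchymal-like cells were re-clustered. The authors' annotation was not used here, so a difference from the study may come from the rebuilt names. A cluster was named where at least 3 markers were 2-fold (1.5-fold for states) above the mean over clusters, and stayed unnamed where another class led its top 10 genes, names tied or it was shallow.

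UMIs were summed per library and class and given as CPM with exact Poisson intervals. Ratios have exact conditional binomial intervals and shares exact Clopper-Pearson intervals, all at 95%. Log2 ratios used a prior of 1 CPM, and list members needed 10 CPM in either library. The interval step was tested only on simulated Poisson and binomial counts. These lack the spread between cells seen here, so that test does not cover it. Named genes were the 5 members, Slc31a1, Atp7a, the 4 genes of each list furthest from a log2 ratio of 0, and the 5 genes with the highest Pearson r; Pam, Atox1, Eln and overlapping genes were named after their values were seen. Python 3.11.15 was used with scipy 1.17.1.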

Additional observations from a re-analysis of the deposited data

Results flagged for a closer look

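Lox and Loxl2 gave ratios on opposite sides of 1 in different cells of the same pair of libraries, with counting intervals that exclude 1. For Lox the ratio of cKO over WT was 0.963 in state 0, 0.963 in state 1, 0.843 in state 2 and 0.865 in macrophage-like cells, against 1.01 in state 3. For Loxl2 it was 0.905 in state 0, 0.899 in state 2 and 0.912 in macrophage-like cells, against 1.09 in state 1, 1.16 in state 3 and 1.07 in state 4. With 1 library per group these differences between cell groups were not tested. In state 2, 66.2% of all genes had a ratio below 1. There 58.7% of genes had a higher ratio than Lox and 49.4% a higher ratio than Loxl2, so neither stood apart. In state 3, 38.6% of genes had a higher ratio than Lox and 9.5% a higher ratio than Loxl2. In macrophage-like cells both genes stood at the level of the stromal anchors. The Loxl2 ratio of state 3 was not seen in the finer pre-osteoblast-like cluster, where it was 0.874.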

How the results depend on the processing

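No paired analysis was possible because each group had 1 library, and for the same reason no library could be left out. Across 13 alternatives, of which equal composition over states of at least 50 cells was added after the data were seen, Loxl1 stayed below 1 and Loxl3 above 1. Lox stayed below 1, at 0.973 in cells with at least 20000 UMIs, 0.996 in shallower cells, 0.985 with the median of gene ratios as the scale, 0.981 without mitochondrial and ribosomal genes, 0.945 with equal weight per cell, 0.937 with equal cluster composition and 0.952 with equal composition over states of at least 50 cells. Loxl1 gave 0.839 in shallower cells, 0.929 with the median scale and 0.885 with equal cluster composition. Loxl2 had no stable side of 1: it gave 1.03 with the median scale and without mitochondrial and ribosomal genes, but 0.981 with equal weight per cell and 0.999 with equal cluster composition. Loxl3 gave 1.29 in shallower cells and 1.16 with equal weight per cell, and Loxl4 1.27 in shallower cells; the causes were not tested. In WT, mesenchymal-like cells ranked 2 for Loxl3 under 3 of the 4 other choices of cells. The class above was megakaryocyte-like with no cell filter (158 cells, 118% of the mesenchymal level, anchor median 51.8%), and B cell-like with a stricter filter (105 cells, 129%, anchors 75.2%) and at resolution 1.0 (102 cells, 114%, anchors 75.9%). No scaling moved the median log2 ratio of all genes by over 0.1. The 5 most similar genes changed with Spearman's rho for all 4 members ranked. Depth limits Loxl4 most.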

Other observations

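An unnamed cluster outside the mesenchymal-like class, led by the contractile genes Tagln, Cnn1 and Acta2 (382 cKO and 165 WT cells), also held lysyl oxidase transcripts. Its cells were shallow, with medians of 2340 UMIs in cKO and 2581 UMIs in WT, and their mitochondrial share was 0.179% and 0.248%, against 3.72% to 4.05% in cKO and 3.13% to 4.14% in WT in the mesenchymal clusters; the part of this in the levels was not tested. Lox had 567.5 CPM in cKO and 864 CPM in WT, or 30.7% and 45.1% of the mesenchymal level, where the stromal anchors had medians of 13.2% and 19.3%. Loxl1 stood at 35.2% in cKO and 47.5% in WT. In cKO both intervals lay above all 7 anchors, and in WT they overlapped the highest anchor.

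The antisense gene AC161119.1, which overlaps Lox, had 89.8 CPM in cKO and 70.6 CPM in WT mesenchymal-like cells, a ratio of 1.27 (1.23 to 1.31), while Lox itself gave 0.966. This gene was chosen after its values were seen.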
